A study of Mus musculus with 51 samples.

Results

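The core signalling route for bone morphogenetic proteins (BMPs) was described here through 10 genes of the 24421 in the count files. They were found by symbol: the type I receptors Acvr1, Bmpr1a and Bmpr1b, the type II receptor Bmpr2, the receptor-regulated SMADs Smad1, Smad5 and Smad9, and the target genes Id1, Id3 and Id4. All 10 were present in each of the 51 libraries' files.

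BMPs are secreted ligands that bring type I and type II serine-threonine kinase receptors together at the cell surface. The type II receptor phosphorylates the type I receptor, which in turn phosphorylates SMAD1, SMAD5 and SMAD9 at their carboxyl ends, and the phosphorylated SMADs enter the nucleus with SMAD4. The Id genes encode helix-loop-helix proteins without a DNA-binding region, are classical direct BMP targets, and are used as readouts of the pathway. In the brain, BMP signalling is known for promoting the astrocyte fate and for its part in blood vessels, where ACVRL1 and endoglin also serve as receptors.

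RNA was sequenced from prefrontal cortex of adult male C57BL/6J mice that had chronic intermittent ethanol (CIE) vapor or air. CIE mice had ethanol vapor for 16 h a day over 4 weekly cycles, with injections of ethanol at 1.6 g/kg and pyrazole, an inhibitor of alcohol dehydrogenase, at 1 mmol/kg, while controls breathed air and had saline with the same pyrazole dose, so both groups carry that drug. Each of 17 mice (8 control, 9 CIE) gave 3 preparations: cells captured on beads against ACSA2 (astrocytes), cells captured on beads against CD11b from what the first beads left (microglia), and total homogenate set aside from the same tissue before dissociation. The 3 preparations of 1 mouse are not independent animals, and the control mice are shared by the comparisons made within each preparation.

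Libraries held 571878 to 10041788 counts on genes in the bead preparations and 5042926 to 15594154 in homogenate. On a scale common to all libraries, the summed level of 12 astrocyte markers in controls was 10924 to 19161 counts per 1000000 (CPM) in astrocytes, 6387 to 9196 in homogenate and 353 to 867 in microglia. The 12 microglial markers summed to 31254 to 44512 CPM in control microglia and 685 to 1060 in homogenate. The bead preparations were not pure by these lists. Control astrocyte libraries also held 16452 to 23460 CPM of 10 oligodendrocyte markers, against 1018 to 3682 in homogenate, and 1630 to 6888 CPM of the microglial markers. The 15 endothelial markers summed to 1395 to 3191 CPM in control astrocytes, 626 to 3039 in control microglia and 455 to 858 in control homogenate.

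The coding ends of the SMADs carry the codons for the serines that the type I receptor phosphorylates, and are shown for that site. The letters alone do not tell which receptor acts on a SMAD. Each run holds the last 30 bases of the coding sequence with its stop codon, on the strand of the gene in the GRCm38 (mm10) build, and the capitals mark the 4 codons before the stop.
Smad1, chr8:79339649-79339678, minus strand: ccccacaatcctattTCATCCGTGTCTtaa
Smad5, chr13:56737449-56737478, plus strand: ccgctgaaccccattTCTTCTGTTTCAtag
Smad9, chr3:54797472-54797501, plus strand: ccacacaaccctatcTCTTCAGTGTCTtaa
The longest run of identical bases between transcripts of any pair within the SMAD, Id or type I receptor group was 12 to 29 bases, against reads of 150 bases.

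Promoter letters were taken from RefSeq (GRCm38.p6) for the 9 members that the table holds, and searched on both strands for GGCGCC and GGAGCC, the SMAD1/5 box and a related form, and for CAGACA, a SMAD4 element. In the 250 bases before the start, 9.59% of the 32851 mouse promoters held GGCGCC, 25.97% held GGAGCC and 17.1% held CAGACA. Id4 and Smad9 each held 1 match of GGCGCC and 1 of GGAGCC, which stand in capitals. Both are shown because they share these letters while the genes differ in where they are highest, Id4 in astrocytes and Smad9 in homogenate.
Id4, chr13:48260866-48261115, plus strand: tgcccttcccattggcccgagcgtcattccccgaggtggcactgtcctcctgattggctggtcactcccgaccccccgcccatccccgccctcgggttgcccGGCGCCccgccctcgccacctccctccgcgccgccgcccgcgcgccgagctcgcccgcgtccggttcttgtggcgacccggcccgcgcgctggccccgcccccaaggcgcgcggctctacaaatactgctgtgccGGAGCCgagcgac
Smad9, chr3:54755332-54755581, plus strand: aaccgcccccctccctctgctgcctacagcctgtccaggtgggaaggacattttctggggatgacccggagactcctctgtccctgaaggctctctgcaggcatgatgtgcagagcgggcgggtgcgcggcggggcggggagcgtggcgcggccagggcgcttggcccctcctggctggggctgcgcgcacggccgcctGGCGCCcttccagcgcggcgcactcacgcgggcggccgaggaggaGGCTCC
A match is a run of letters and no evidence of binding. Id1 has no entry in the table. The table's windows of Bmpr1a, Bmpr2 and 1 of the 3 of Smad5 also held 1 GGCGCC, and those of Acvr1 (2 matches), Id3 and another of Smad5 held GGAGCC, but exons cover part or all of these windows and none is printed. Of the windows free of annotated exons, those of Bmpr1b held 1 GGAGCC (chr3:141931589-141931838) and 1 CAGACA (chr3:141982265-141982514, both minus strand), and that of Smad5 (chr13:56702760-56703009, plus strand) held none of the 3 motifs.

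Which cells' RNA held the members was asked in the 8 control mice. In a fit of all 51 libraries, 9 of the 10 members differed between astrocytes and homogenate, where 77.0% of 14379 genes were called at an adjusted p under 0.05 (36.2% higher and 40.8% lower in astrocytes). Between microglia and homogenate 8 differed, where 83.6% of genes were called (37.5% higher and 46.1% lower in microglia). Between astrocytes and microglia 9 were called, against 69.8% of all genes (34.1% higher and 35.7% lower in astrocytes). Over both directions together these counts lie near the background. By direction, 8 members were higher and 1 lower in astrocytes than in homogenate, and 7 higher and 2 lower in astrocytes than in microglia. Against homogenate, 4 were higher and 4 lower in microglia. The split by direction was not tested. The members split by preparation. Bmpr1b and Id4 were highest in astrocytes and close to absent in microglia, Acvr1 and Smad1 were highest in microglia, Smad9 was highest in homogenate, and Bmpr2 was not called in any of the 3 contrasts. In bulk RNA, fewer cells of a type and less RNA per cell cannot be told apart. Homogenate was set aside before dissociation, and the bead preparations went through it. The 16 cell dissociation and immediate early genes summed to 26660 to 45342 CPM in control microglia, 4366 to 11943 in control astrocytes and 762 to 1110 in control homogenate. Against homogenate, edgeR called 16 of them higher in microglia and 15 in astrocytes. The part of dissociation in the member levels was not tested.

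Among the type I receptors, Acvr1, which encodes the receptor ALK2 (chr2:58388644-58567157), had 74.4, 99.3 and 104 CPM (lowest, median and highest control mouse, common scale) in microglia. It had 43.5, 52.1 and 58.7 CPM in astrocytes and 29.2, 39.4 and 50.3 CPM in homogenate. Every control microglial library lay above every control library of the other preparations, while astrocytes and homogenate overlapped. The log2 difference was 1.25 ± 0.0872 (SE) between microglia and homogenate (adjusted p = 9.26e-19, edgeR's quasi-likelihood test) and 0.37 ± 0.0852 between astrocytes and homogenate (adjusted p = 0.000123).

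Bmpr1b, a type I receptor (chr3:141837136-142169425), went the other way. Its CPM values were 86.3, 103 and 134 in control astrocytes, 30.8, 36.3 and 40.2 in homogenate, and 0, 0.823 and 2.60 in microglia, with no overlap between any 2 preparations. Microglial libraries held 0 to 5 reads of it, and 2 of the 8 had none, where 3 counts would be 2.44 and 2.48 CPM of the unscaled library. The log2 difference was 1.58 ± 0.162 between astrocytes and homogenate (adjusted p = 1.48e-12) and 6.87 ± 0.294 between astrocytes and microglia (adjusted p = 3.08e-26).

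Bmpr1a (chr14:34410734-34503341), the third type I receptor, had 73.7, 82.6 and 110.5 CPM in control astrocytes, 59.5, 65.5 and 78.3 in homogenate and 23.9, 52.5 and 58.8 in microglia. All control microglial libraries were below all control libraries of the other preparations, with log2 differences of -0.42 ± 0.115 from homogenate (adjusted p = 0.000873) and 0.82 ± 0.116 for astrocytes against microglia (adjusted p = 1.33e-08). Bmpr2 (chr1:59763400-59879014), the type II receptor with which all 3 can pair, had medians of 227, 302 and 269 CPM in astrocytes, microglia and homogenate, and its range of 156 to 353 CPM in astrocytes covered almost the whole range of the others. Its log2 difference between microglia and homogenate was 0.062 (95% interval -0.24 to 0.37, adjusted p = 0.71), a sign that turned with other scaling factors (RLE, -0.020). Without mouse 35 the astrocyte against microglia contrast of Bmpr2 was called (log2 -0.37, adjusted p = 0.0353, against -0.27 and 0.115 with all mice).

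The SMADs also divided. Smad1 (chr8:79338395-79399518) had 53.6, 68.8 and 75.3 CPM in control microglia, 28.7, 31.1 and 36.4 in astrocytes and 21.9, 24.5 and 28.3 in homogenate, with no overlap. Microglia exceeded homogenate by 1.47 ± 0.0912 on the log2 scale (adjusted p = 9.79e-21). Smad9 (chr3:54755582-54801257) had 13.2, 15.8 and 20.1 CPM in homogenate, 6.47, 10.3 and 13.5 in astrocytes, and 0, 0.823 and 1.48 in microglia, where libraries held 0 to 5 reads. Its 2 control libraries without a read, mice 03 and 22, allow up to 2.44 and 2.93 CPM of the unscaled library (3 counts). It was the single member called lower in astrocytes than in homogenate, with a log2 difference of -0.69 ± 0.153 (adjusted p = 7.47e-05). Smad5 (chr13:56703010-56742377) was above homogenate in both, with 41.7, 49.0 and 57.7 CPM in homogenate, 56.4, 80.9 and 118 in microglia, and 87.6, 97.6 and 109 in astrocytes. The astrocyte and microglial libraries overlapped, and the call between them (0.24 ± 0.108, adjusted p = 0.0439) was lost without mouse 19, 20, 35 or 37 (adjusted p 0.115, 0.0937, 0.123 and 0.138) and without a filter on low counts (0.0746).

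The Id genes were each higher in astrocytes than in homogenate. Id4 (chr13:48261228-48266026) had 105, 138 and 177 CPM in control astrocytes, 40.9, 49.5 and 59.9 in homogenate, and 1.23, 2.53 and 9.62 in microglia, with no overlap. The log2 difference was 1.47 ± 0.166 between astrocytes and homogenate (adjusted p = 2.88e-11) and 5.50 ± 0.254 between astrocytes and microglia (adjusted p = 4.65e-25). Part of Id4 (82 exonic bases) overlaps the antisense gene A330033J07Rik, and whether the counting used strand is not given in the sources used here. In GENCODE, exons of Gm49291 (171 bases of Id4, opposite strand), Gm17110 (290 of Bmpr1a, opposite strand) and Gm27301 (100 of Smad5, same strand) also overlap members, and none of these 3 symbols is in the count files. Id3 (chr4:136143497-136145755) had 49.4, 56.9 and 97.0 CPM in astrocytes, 21.3, 29.8 and 38.6 in homogenate, and 6.68, 21.1 and 49.8 in microglia. Astrocytes exceeded homogenate by 1.04 ± 0.240 (adjusted p = 0.000114), and microglia, whose libraries covered a wide range, did not differ from homogenate beyond it (-0.22 ± 0.262, adjusted p = 0.425).

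Id1 (chr2:152736251-152737410) had 26.3, 41.3 and 81.5 CPM in control astrocytes, 8.39, 24.3 and 52.7 in microglia, and 8.41, 12.8 and 18.7 in homogenate. Both bead preparations were above homogenate, astrocytes by 1.74 ± 0.267 (adjusted p = 7.98e-08) and microglia by 1.12 ± 0.282 (adjusted p = 0.000314). In the same contrasts edgeR called 15 of the 15 endothelial markers higher in astrocytes and 13 higher in microglia. Over all genes the shares called higher were 36.2% and 37.5%. The part of endothelial RNA in the levels of Id1 and Id3 was not tested. The call between astrocytes and microglia (0.62 ± 0.276, adjusted p = 0.0434) was lost with the mouse as a block (0.63, adjusted p = 0.0552), without a filter on low counts (adjusted p = 0.0595) and without mouse 03, 05, 19, 20 or 22, whose removal gave adjusted p of 0.268, 0.0646, 0.0557, 0.0976 and 0.0609. Without mouse 03 this log2 difference was 0.34, and without the 4 mice numbered under 10 it was 0.23 (adjusted p = 0.459).

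**Figure D1:**
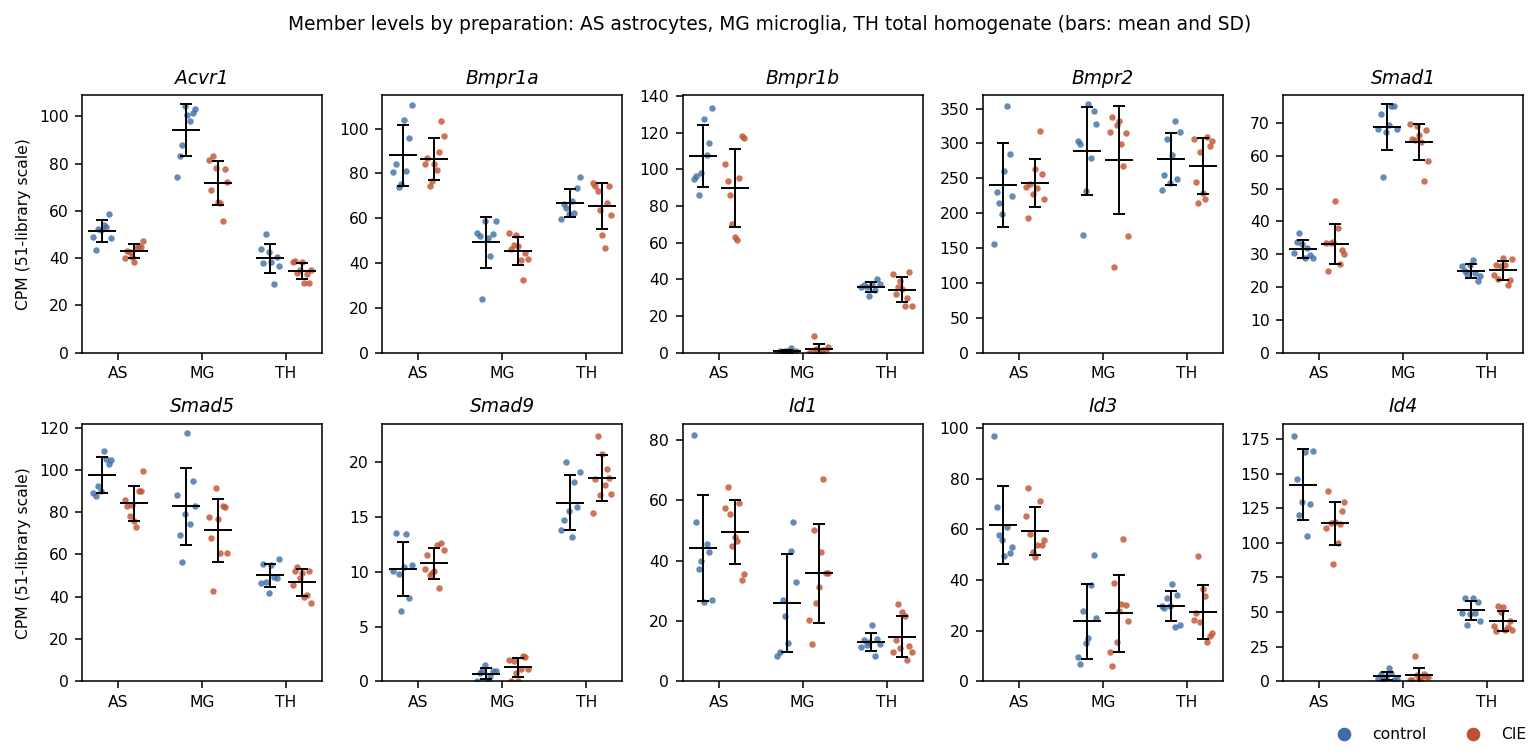
Level of each member in each mouse, in CPM on the scale of all 51 libraries (vertical axis from 0), for astrocytes (AS), microglia (MG) and total homogenate (TH), with controls in blue (8 mice), CIE in orange (9 mice), and bars for the mean and SD. Control microglia lie at 74.4 to 104 CPM for Acvr1 and at 0 to 2.60 CPM for Bmpr1b, while Bmpr2 overlaps across all preparations.

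Per kilobase of exon, the order of the members within a preparation could be compared. Exon lengths ran from 1160 bases (Id1) to 12899 (Bmpr2), and uneven coverage along poly(A)-selected transcripts was not corrected for. The paper reports a wider range of RNA integrity in microglia than in astrocytes. The part of length and RNA quality in the order was not tested. In control astrocytes the Id genes led, with 48.3 ± 12.2 (Id3), 38.0 ± 15.1 (Id1) and 36.9 ± 6.67 (Id4) CPM per kb (mean ± SD, n = 8). Bmpr2 followed at 18.6 ± 4.63, Bmpr1b at 18.4 ± 2.87, Bmpr1a at 14.6 ± 2.25, Acvr1 at 14.2 ± 1.24 and Smad5 at 13.6 ± 1.20, with Smad1 (6.10 ± 0.519) and Smad9 (1.91 ± 0.459) last. The SD ranges of neighbours overlapped throughout except between Id4 and Bmpr2, Smad5 and Smad1, and Smad1 and Smad9. In control microglia Acvr1 led with 25.9 ± 3.01 CPM per kb, and its SD range overlapped that of Id1 (22.4 ± 13.9), which was followed by Bmpr2 (22.4 ± 4.88), Id3 (18.5 ± 11.5), Smad1 (13.3 ± 1.34), Smad5 (11.5 ± 2.55) and Bmpr1a (8.15 ± 1.88). Id4 (0.992 ± 0.743), Bmpr1b (0.146 ± 0.141) and Smad9 (0.130 ± 0.0948) were at the foot. In control homogenate Id3 (23.3 ± 4.55) and Bmpr2 (21.5 ± 2.90) led and Smad9 (3.04 ± 0.474) was last.

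The effect of CIE was asked within each preparation. Acvr1 was lower in CIE mice in astrocytes and in microglia and was the only member edgeR called in either. In astrocytes 1 of 10 members was called, against 5.13% of the 12878 genes tested (2.91% higher and 2.22% lower). DESeq2 called 2 members in astrocytes, Acvr1 and Smad5, and 1 in microglia, Acvr1. By edgeR, in microglia 1 of the 7 members tested was called, against 3.47% of 10761 genes (2.31% higher and 1.15% lower), and Bmpr1b, Smad9 and Id4 did not pass the filter on low counts there. In homogenate no member was called, where 0.250% of 13982 genes were (0.193% higher and 0.0572% lower). At an unadjusted p under 0.05 homogenate held 2 members, Acvr1 and Id4, and DESeq2 called none there. A single call among 10 or 7 members gives little to set against these backgrounds. The median log2 change of the members tested was -0.051 in homogenate, -0.082 in microglia and -0.041 in astrocytes, against 0.0061, -0.0052 and 0.0033 over all genes tested.

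Acvr1 in astrocytes was 49.2, 57.6 and 64.4 CPM in the 8 controls (lowest, median and highest, scale of the preparation) and 43.2, 48.4 and 53.5 CPM in the 9 CIE mice. All 9 CIE mice were below the control median, 6 were below the lowest control, and 7 of 8 controls were above the highest CIE mouse. Acvr1 fell by 0.26 ± 0.0638 on the log2 scale, to 0.834 of the control level (edgeR adjusted p = 0.0226). The call was lost without mouse 22 (-0.25, adjusted p = 0.0504) and when all 51 libraries shared one fit (-0.26, adjusted p = 0.0658), and over 23 alternatives the adjusted p ran from 0.00263 to 0.0658. Mouse numbers fall into 3 ranges that the labels do not explain, and within 03 to 08, 19 to 26 and 35 to 41 the log2 difference was -0.14, -0.35 and -0.22.

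In microglia Acvr1 was 71.3, 87.3 and 94.3 CPM in controls and 51.9, 65.6 and 80.4 CPM in CIE mice. All 9 CIE mice were again below the control median, 7 were below the lowest control, and 6 of 8 controls were above the highest CIE mouse. The change was -0.39 ± 0.0951 on the log2 scale, 0.766 of the control level (adjusted p = 0.0286). The call was lost without mouse 20, 25, 26, 35, 36, 37 or 39, with adjusted p of 0.0691, 0.0642, 0.0666, 0.0575, 0.0621, 0.0611 and 0.0539 and log2 changes of -0.38 to -0.35. Over 24 alternatives the adjusted p ran from 0.00151 to 0.221. Within the 3 ranges of mouse numbers the difference was -0.030, -0.47 and -0.50, so the 4 mice numbered under 10 showed almost none of it (-0.48 and adjusted p = 0.00916 without them).

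Marker lists moved with treatment in the same microglial libraries. The 12 microglial markers summed to 31254 to 44512 CPM in controls and 23016 to 30570 CPM in CIE mice, with no overlap and none of the 12 at 0, and 2 of them (Fcrls and Gpr34) were called lower. All 9 neutrophil markers tested of 10 were called higher by edgeR, and the sum of the 10 ran from 106 to 252 CPM in controls and from 93.8 to 6785 CPM in CIE mice. All 10 oligodendrocyte markers had a fitted log2 change above 0 (median 0.59), with Mobp called (1.70 ± 0.307, adjusted p = 0.00530), and their sum was 2105 to 7520 CPM in controls (median 4398) and 2340 to 9739 CPM in CIE mice (median 7058). Without mice 23, 26, 39 and 41, whose neutrophil sums were the highest, the Acvr1 change was -0.32 and was not called (adjusted p = 0.221, 5 CIE mice left). Within groups, Acvr1 and the microglial marker sum had r = 0.170 over 8 control microglial libraries (exact permutation p = 0.692, adjusted 0.815) and 0.680 over 9 CIE libraries (p = 0.0450, adjusted 0.0899). Spearman's rho was 0.119 (p = 0.793, adjusted 0.881) and 0.517 (p = 0.162, adjusted 0.285), and r was -0.186 and 0.411 without the 2 libraries farthest out. Centred on the ranges of mouse numbers, r was 0.230 and 0.805 (exact permutation p within ranges 0.917 and 0.0521, adjusted 0.931 and 0.185). In astrocytes the microglial sum was 1630 to 6888 CPM in controls and 2848 to 6837 CPM in CIE mice, and none of its 12 genes was called. Acvr1 and that sum had r = 0.549 in control astrocytes (exact permutation p = 0.157, adjusted 0.256) and 0.118 in CIE astrocytes (p = 0.763, adjusted 0.844). The rho were 0.262 and 0.0333, and r was -0.394 and 0.479 without the 2 libraries farthest out. Centred on the ranges, r was -0.172 and 0.140. Other lists did hold calls in astrocytes, with Cd163 and Siglec1 of the 8 border macrophage markers higher (list median 0.54, sums of 50.8 to 207 CPM in controls and 76.5 to 299 in CIE mice), and Mobp (oligodendrocyte), Foxj1 (ependymal), Slc6a13 (leptomeningeal) and Tubb3 (neuronal) higher and Gpr17 (oligodendrocyte precursor) lower. The neutrophil sum there was 0.972 to 13.2 CPM in controls and 3.13 to 170.3 CPM in CIE mice, and none of its genes passed the filter on low counts. The part of these shifts in the Acvr1 result was not tested.

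In homogenate Acvr1 was 28.7, 39.1 and 50.5 CPM in controls and 29.5, 34.4 and 38.3 CPM in CIE mice. All 9 CIE mice were below the control median, yet none was below the lowest control, and 5 of 8 controls were above the highest CIE mouse. The log2 difference was -0.20 ± 0.0936 (adjusted p = 0.542 by edgeR).

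**Figure D2:**
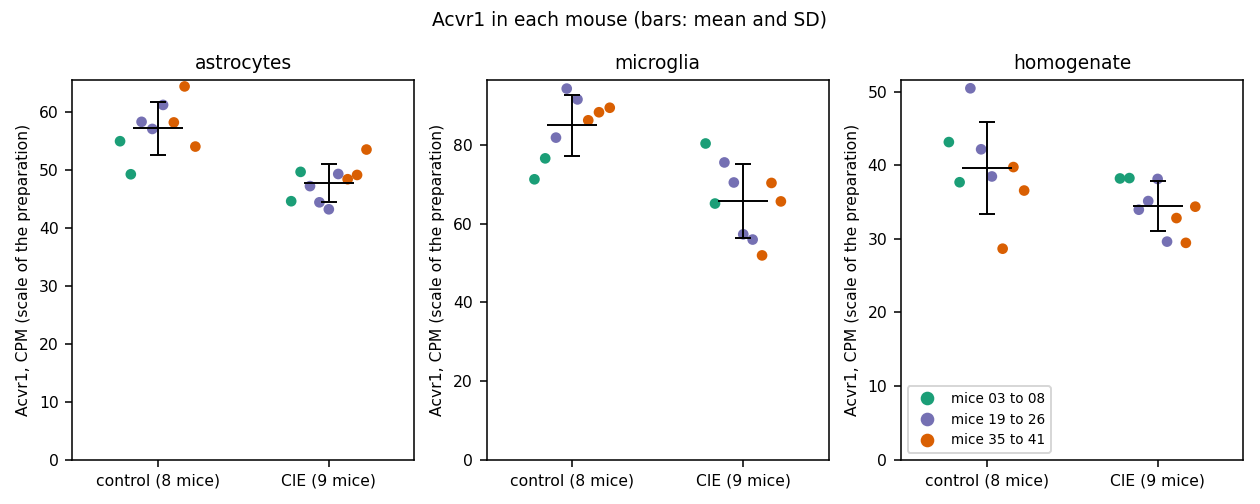
Acvr1 in each mouse by preparation, in CPM on the scale of that preparation (vertical axis from 0), with control and CIE mice side by side, colors for the range of mouse numbers, and bars for the mean and SD. CIE astrocytes span 43.2 to 53.5 CPM against 49.2 to 64.4 in controls, and CIE microglia span 51.9 to 80.4 CPM against 71.3 to 94.3.

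The other receptors were not called in any preparation. Bmpr1b in astrocytes was 96.0, 113 and 149 CPM in controls and 68.5, 102 and 132 CPM in CIE mice, with 4 CIE mice below the lowest control (log2 -0.26 ± 0.134, adjusted p = 0.272). Its log2 difference in homogenate was -0.059 (95% interval -0.29 to 0.17). In CIE microglia Bmpr1b ranged from 0 to 8.39 CPM, from 27 reads in all. In homogenate the difference of Bmpr1a was -0.022 (-0.22 to 0.18), in microglia it was -0.12 (-0.41 to 0.17), and in astrocytes it was -0.031 (-0.22 to 0.16). In the same order Bmpr2 differed by -0.043 (-0.25 to 0.17), -0.034 (-0.41 to 0.35) and 0.019 (-0.23 to 0.27). These intervals leave room for a fall of the size measured for Acvr1 in microglia only for Bmpr1a and Bmpr2 in microglia and Bmpr1b in astrocytes. The Acvr1 change was smaller in homogenate (-0.20), and there the intervals of Bmpr1a, Bmpr1b and Bmpr2 all leave room for it. For its change in astrocytes (-0.26), only the astrocyte interval of Bmpr1b does.

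Of the SMADs, Smad5 in astrocytes lay nearest to the threshold. It was 99.0, 108 and 123 CPM in controls and 80.7, 95.6 and 112 CPM in CIE mice, and 8 of 9 CIE mice were below the lowest control. The log2 difference was -0.21 ± 0.0707 with an adjusted p of 0.0816 by edgeR, and over the alternatives that p ran from 0.0297 to 0.285. It was called by DESeq2 (0.0297), with a covariate for mouse-number range (0.0400), and without mouse 03 (0.0499) or 41 (0.0387). Within the ranges of mouse numbers the difference was -0.059, -0.32 and -0.17. In microglia the Smad5 difference was -0.17 (-0.47 to 0.12) and in homogenate -0.092 (-0.28 to 0.099).

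Smad1, the SMAD most concentrated in microglia, was 49.8, 64.3 and 67.0 CPM there in controls and 48.6, 59.4 and 68.9 CPM in CIE mice. The groups overlapped over nearly their whole range (log2 -0.082, 95% interval -0.26 to 0.095). Its difference was 0.070 (-0.14 to 0.28) in astrocytes and 0.017 (-0.15 to 0.18) in homogenate. Smad9 in homogenate was 13.2, 15.5 and 20.2 CPM in controls and 15.4, 18.3 and 22.5 CPM in CIE mice, and 8 of 9 CIE mice were above the control median (log2 0.19 ± 0.0993, adjusted p = 0.588). In astrocytes it differed by 0.091 (-0.20 to 0.38).

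The Id genes, the transcriptional readout among the members, had no call in any preparation. Id4 in astrocytes was 114, 154 and 199 CPM in controls and 92.7, 127 and 159 CPM in CIE mice. Of the CIE mice 8 of 9 were below the control median and 2 were below the lowest control. The log2 difference was -0.32 ± 0.114 (adjusted p = 0.109 by edgeR), and the adjusted p over the alternatives ran from 0.0480, without mouse 08, to 0.322. Within the ranges of mouse numbers the difference was -0.37, -0.42 and -0.10. In homogenate Id4 was 41.1, 48.7 and 59.9 CPM in controls and 36.1, 39.9 and 54.4 CPM in CIE mice, and 5 CIE mice were below the lowest control (-0.23 ± 0.107, adjusted p = 0.527). The 12 astrocyte markers summed to 10924 to 19161 CPM in control (median 16193) and 10200 to 16657 CPM in CIE astrocytes (median 13905), with 1 called higher (Gjb6) and 1 lower (Sox9). Of the 12, 2 had a fitted log2 change above 0, and the median change was -0.16. The part of this shift in the member values was not tested.

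Id1 and Id3 had wide intervals. In astrocytes Id1 was 29.6, 45.3 and 91.8 CPM in controls and 37.01, 53.9 and 74.2 CPM in CIE mice (log2 0.18, 95% interval -0.21 to 0.58). In microglia Id1 was 8.03, 22.3 and 45.9 CPM in controls and 11.8, 32.5 and 62.3 CPM in CIE mice (0.39, -0.26 to 1.04). Without mice 23, 26, 39 and 41 that Id1 difference was -0.049. In homogenate Id1 differed by 0.18 (-0.31 to 0.68). For Id3 the homogenate difference was -0.11 (-0.53 to 0.30), the microglial one 0.14 (-0.59 to 0.86) and the astrocyte one -0.050 (-0.32 to 0.22), with 55.2 to 88.3 CPM in CIE astrocytes against 55.7 to 109 in controls. The microglial intervals of Id1 and Id3 were the widest of the 7 members tested there.

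**Figure D3:**
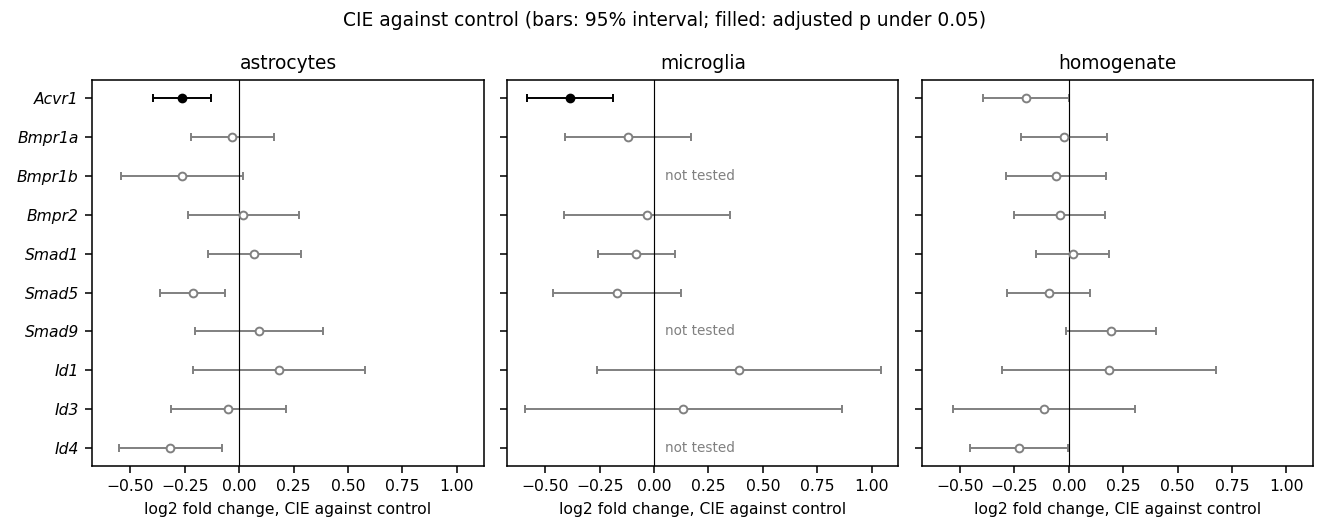
Fitted log2 fold change of each member in CIE against control mice (horizontal axis, bars for the 95% interval) in astrocytes, microglia and homogenate, filled where the adjusted p is under 0.05. Acvr1 is filled in astrocytes (-0.26) and microglia (-0.39), and 3 members were not tested in microglia.

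Whether the CIE response differed between preparations was tested directly. No member was called in any of the 3 differences of responses, where 0.00695%, 0.828% and 0.529% of 14379 genes were called for astrocytes minus homogenate, microglia minus homogenate and microglia minus astrocytes. For the second these were 0.563% higher and 0.264% lower, and for the third 0.410% and 0.118%. At an unadjusted p under 0.05 none of the 10 was found in any, and DESeq2 called none. For Acvr1 the response in microglia minus that in homogenate was -0.21 (95% interval -0.45 to 0.029, adjusted p = 0.547), microglia minus astrocytes was -0.15 (-0.39 to 0.089, adjusted p = 0.700), and astrocytes minus homogenate was -0.059 (-0.29 to 0.18, adjusted p = 1). The calls of Acvr1 in the bead preparations are thus not shown to differ from its change in homogenate.

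A list of 74 further pathway genes gave the surroundings of the members. In astrocytes 50 were tested, 5 were called lower and none higher, against 2.22% of all genes called lower. DESeq2 called 7, these 5 with Acvr2a, a type II receptor, and Nog, which encodes the antagonist noggin, and at an unadjusted p under 0.05 edgeR had 14. By edgeR Acvr2a gave -0.29 ± 0.0917 (adjusted p = 0.0711) and Nog -0.79 ± 0.234 (adjusted p = 0.0524). The 5 were Hey1 and Hes1, transcriptional repressors also induced by Notch, Sox9, a transcription factor of astrocytes and a marker on the astrocyte list, Bmper, which encodes a secreted BMP-binding protein, and Rgma, a BMP co-receptor. By group, 0 of 6 ligands, 1 of 9 antagonists and 1 of 9 other receptors and co-receptors were called. Of the common and inhibitory SMADs with their regulators 0 of 16 were called, and of the other targets 3 of 10. The median log2 change was -0.016 over the 50 and 0.0033 over all genes tested.

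Hey1 separated the groups in astrocytes, with 33.7, 37.3 and 52.5 CPM in controls and 13.3, 23.6 and 31.8 CPM in CIE mice (log2 -0.73 ± 0.157, adjusted p = 0.0120). Sox9 fell from a median of 244 to 179 CPM (-0.39 ± 0.0889, adjusted p = 0.0173), Bmper from 9.95 to 4.54 CPM (-0.98 ± 0.236, adjusted p = 0.0222) and Hes1 from 65.5 to 41.2 CPM (-0.62 ± 0.158, adjusted p = 0.0290), all with overlap between the groups. Rgma had medians of 290.0 and 227 CPM (-0.38 ± 0.106, adjusted p = 0.0410). Of these calls, those of Hes1 and Rgma were lost without single mice, Hes1 without 20, 25, 26, 35 or 36 (adjusted p 0.0533, 0.0540, 0.0620, 0.0556 and 0.0634) and Rgma without 05, 22, 23, 24, 25, 26, 37 or 39 (adjusted p 0.0649, 0.0859, 0.0528, 0.0592, 0.0737, 0.0838, 0.0557 and 0.0589). Sox9 and Rgma were not called when all 51 libraries shared one fit (adjusted p = 0.181 and 0.139), and Rgma was not called without a filter on low counts (0.0545).

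In microglia 37 of the 74 were tested and none was called by edgeR. At an unadjusted p under 0.05 there were 6, and DESeq2 called 2, Hes1 and Smurf1 (adjusted p = 0.0267 and 0.0135). Both were also called with all 51 libraries in one fit (0.0156 and 0.00636), with the covariate for mouse-number range (0.0145 and 0.0406) and without the 4 mice numbered under 10 (0.0232 and 0.0195). Hes1 was called without mouse 03 (0.0307) or 22 (0.0333), and Smurf1 without mouse 08 (0.0282). Hes1 was 74.3, 147 and 174 CPM in controls and 70.2, 84.3 and 118 CPM in CIE mice (-0.54 ± 0.157, adjusted p = 0.0604). Smurf1, a ubiquitin ligase for SMAD1 and SMAD5, gave -0.31 ± 0.0953 (adjusted p = 0.0778), and the haematopoietic factors Tal1 and Lmo2 gave -0.40 ± 0.132 and -0.32 ± 0.112 (adjusted p = 0.101 and 0.118). In homogenate 58 were tested and none was called, with 3 at an unadjusted p under 0.05 and none by DESeq2. The smallest adjusted p there belonged to Smurf1 (-0.17 ± 0.0753, 0.504), the SMAD co-repressor Ski (-0.17 ± 0.0748, 0.507), Fstl1, which encodes a secreted follistatin-like protein (0.41 ± 0.192, 0.531), and Hey1 (-0.32 ± 0.161, 0.566).

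Smad4, Smad6, Smad7 and Id2 had no call under CIE by edgeR in any preparation. Smad4, the common SMAD, differed by 0.0047 (-0.14 to 0.15) in homogenate, by -0.012 (-0.24 to 0.22) in microglia and by -0.013 (-0.15 to 0.12) in astrocytes. The inhibitory Smad6 differed, in that order, by 0.14 (-0.43 to 0.72), 0.40 (-0.24 to 1.04) and 0.15 (-0.31 to 0.61), on levels of 6.71 to 21.2 CPM in astrocytes and 1.91 to 12.9 CPM in microglia. Smad7, the inhibitory SMAD that TGF-beta also induces, differed by -0.16 (-0.33 to 0.0068), -0.19 (-0.41 to 0.020) and 0.084 (-0.083 to 0.25). Id2, the remaining Id gene of the list, differed by 0.12 (-0.15 to 0.39), 0.11 (-0.28 to 0.50) and -0.25 (-0.51 to 0.0097). Across preparations Smad7 was far higher in control microglia than in homogenate (log2 3.47 ± 0.102, edgeR adjusted p = 2.63e-33). All 16 dissociation and immediate early genes were also called higher in that contrast.

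Which genes followed the members from mouse to mouse was described over the 51 libraries after the mean of each of the 6 groups was removed. The libraries share mice and differ in depth and cell makeup, so these r are a description. Id1 and Id3 were each other's nearest gene (r = 0.909). Next to Id1 stood Ccm2l and Sox17 (r = 0.864 and 0.846), and next to Id3 stood Gjc1 and Foxc1 (both 0.843), of which Sox17 and Ccm2l are known from endothelium and Foxc1 from vessel-associated cells. Id4 and Bmpr1b shared their nearest gene, the astrocyte gap junction gene Gja1 (r = 0.840 and 0.781), followed by Tmem47 and Clu for Id4 and by Atp1b1 and Aqp4 for Bmpr1b. The nearest genes were Ube3a, Klf12 and Uhmk1 for Bmpr2 (highest r = 0.881), Reep3, Prkd3 and Nfia for Smad5 (0.794), Fam120a, Gpam and Clcn3 for Bmpr1a (0.741), Tle3, Mycl and Lrrc8a for Smad1 (0.690), Coq4, Naa38 and Fam118b for Smad9 (0.656), and Ddx20, Pqlc2 and Lpcat3 for Acvr1 (0.542).

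Because Id1 and Id3 were picked as a pair from these same libraries, their relation within each of the 6 groups is given as a description, with no test. Pearson's r on the log2 scale was 0.896 in control astrocytes (n = 8), 0.717 in CIE astrocytes (n = 9), 0.939 in control microglia, 0.982 in CIE microglia, 0.795 in control homogenate and 0.928 in CIE homogenate. In the same order Spearman's rho was 0.738, 0.733, 0.929, 0.917, 0.690 and 0.850. Without the 2 libraries farthest from the median of Id1, r was 0.664, 0.584, 0.886, 0.939, 0.230 and 0.855. The low value in control homogenate comes from 6 libraries, and leaving out the extremes of Id1 narrows its range. With both genes centred on the mean of their range of mouse numbers, r was 0.694, 0.897, 0.649, 0.954, 0.720 and 0.871.

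Endothelial marker levels were set beside both genes, and their part in the levels of Id1 and Id3 was not tested. In microglia the 15 markers summed to 626 to 785 CPM in control mice 03 and 05, 1067 to 1736 in mice 19, 20 and 22, and 2016 to 3039 in mice 35, 36 and 37. Id1 in the same control libraries was 8.39 and 9.65 CPM in mice 03 and 05, 12.8 to 26.8 in mice 19, 20 and 22, and 32.9 to 52.7 in mice 35, 36 and 37, so the 3 ranges did not overlap in these control libraries. In CIE microglia the endothelial sums of mice 23 to 26 (1198 to 1747 CPM) and 39 to 41 (1471 to 3130 CPM) overlapped, as did Id1 (25.9 to 50.02 and 35.9 to 66.9 CPM). In control astrocytes the order was another, with Id1 highest in mice 03 and 05 (81.5 and 52.9 CPM, against 26.3 to 45.4 in the other 6). The 20 relations of members with marker sums were chosen after these values were seen, in the libraries that also gave the nearest genes. Their p are thus a description and not an independent test. Among them, Id1 and the endothelial sum had r = 0.763, 0.591, 0.815, 0.832, 0.806 and 0.704 in the 6 groups in the order above (exact permutation p = 0.0238, 0.0950, 0.0187, 0.00611, 0.0131 and 0.0425, adjusted 0.0595, 0.173, 0.0533, 0.0306, 0.0525 and 0.0899). The rho were 0.857, 0.583, 0.881, 0.800, 0.810 and 0.683 (exact permutation p = 0.0107, 0.108, 0.00724, 0.0138, 0.0218 and 0.0503, adjusted 0.0429, 0.216, 0.0429, 0.0461, 0.0544 and 0.112), and r without the 2 libraries farthest out was 0.858, 0.592, 0.634, 0.674, 0.461 and 0.567. These p shuffled mice across the ranges of mouse numbers. Centred on the ranges, r was 0.856, 0.616, -0.333, 0.504, 0.918 and 0.869, and with mice shuffled only within ranges the exact permutation p was 0.0278, 0.420, 0.542, 0.306, 0.0556 and 0.0139 (adjusted over the 20 relations 0.139, 0.6002, 0.677, 0.509, 0.185 and 0.0926). The smallest p that such shuffles allow is 0.0139 in controls and 0.00347 in CIE groups. The microglial r in controls was thus negative within ranges, and no relation of the 20 passed an adjusted p of 0.05 within ranges. A single relation at either floor could not pass over 20 relations, so this does not show that a relation is absent.

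For Id3 and the endothelial sum r was 0.881 in control and 0.833 in CIE microglia (exact permutation p = 0.00456 and 0.00563, adjusted 0.0306 for both, rho 0.857 and 0.867 with p = 0.0107 and 0.00451, adjusted 0.0429 for both, r 0.679 and 0.634 without the 2 farthest). Within ranges these r were 0.277 and 0.460 (exact permutation p = 0.528 and 0.385, adjusted 0.677 and 0.593), so they were smaller there and did not pass. In the other 4 groups the Pearson r of Id3 was 0.479 to 0.760, with adjusted permutation p of 0.0533 to 0.307, and rho was 0.433 to 0.783, with adjusted permutation p of 0.0492 to 0.357. No endothelial marker was called by edgeR under CIE in any preparation, of 15 tested in each, with median log2 changes of -0.021 in astrocytes, 0.00086 in microglia and 0.0093 in homogenate, and sums of 626 to 3039 CPM in control and 674 to 3130 CPM in CIE microglia. Id4 and the astrocyte sum had r = 0.905 in CIE astrocytes (exact permutation p = 0.00139, adjusted 0.0279, rho 0.833 with p = 0.00827, adjusted 0.0429, r = 0.760 without the 2 farthest, r = 0.930 within ranges with adjusted p = 0.0694) and 0.373 in control astrocytes (exact permutation p = 0.371, adjusted 0.464, rho 0.286 with p = 0.501, adjusted 0.668). In control and CIE homogenate the r of Id4 was -0.0870 and 0.0873 (exact permutation p = 0.844 and 0.818, adjusted 0.844 for both), and within ranges it was -0.0450 and 0.852 (adjusted p = 0.931 and 0.0694). Gja1, the gene nearest to Id4 in these same libraries, is itself among the 12 astrocyte markers summed, so the p for Id4 are a description too.

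**Figure D4:**
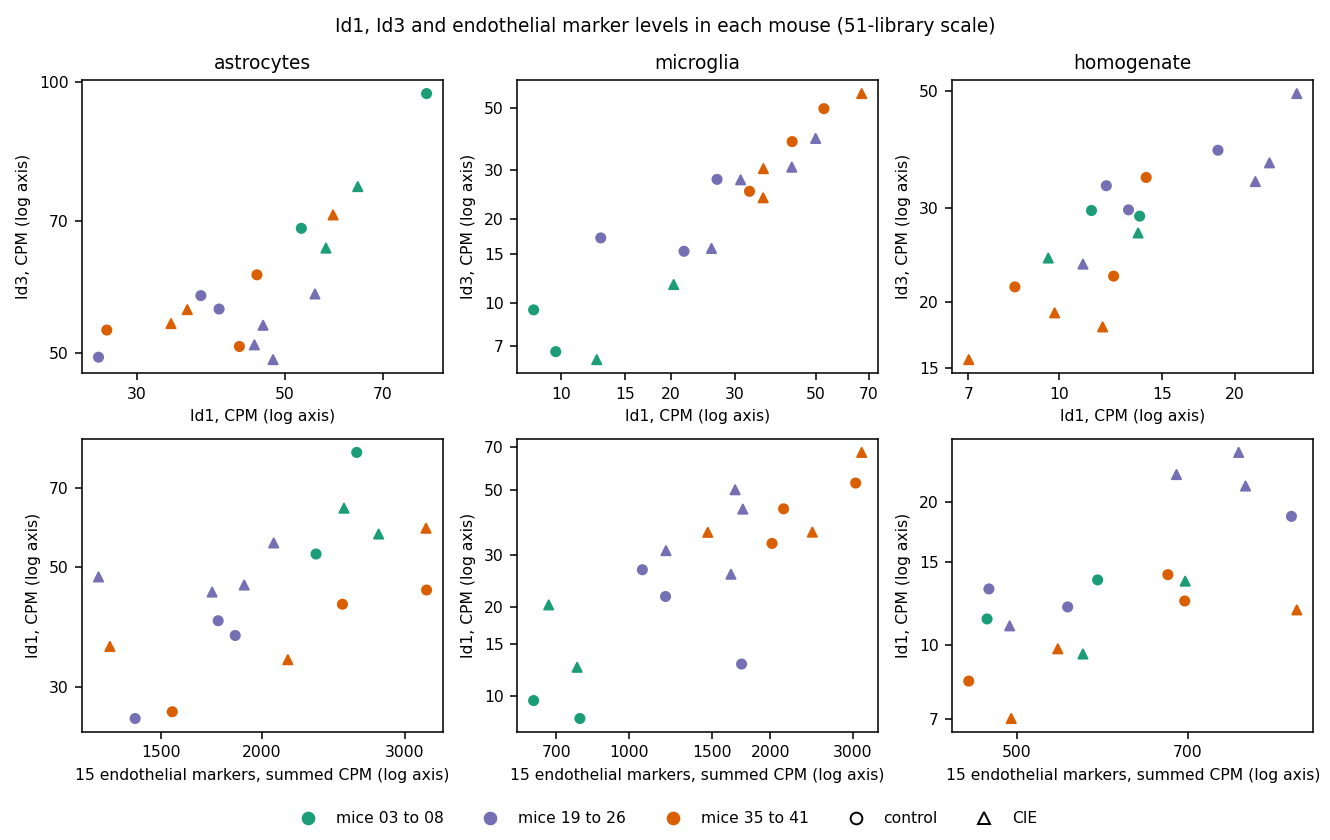
Upper row: Id3 against Id1 in each mouse. Lower row: Id1 against the summed level of 15 endothelial markers, all in CPM on the scale of 51 libraries with log axes, circles for control and triangles for CIE mice, and colors for the range of mouse numbers. In microglia (middle) the control mice 03 and 05 lie at 8.39 and 9.65 CPM of Id1 and the control mice 35 to 37 at 32.9 to 52.7 CPM.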

How the data were processed

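Poly(A) RNA of 51 libraries was sequenced from directional libraries. Per the authors' methods and processing notes, reads were trimmed with Cutadapt 1.8, aligned to mm10 with STAR 2.5.0a, cleared of duplicates with Picard 1.141, and assigned to genes with HTSeq 0.6.1p1. The annotation release and strand setting are not given in the sources used here. The deposited values are raw counts per gene. The 5 summary rows of each file took 22.1 to 67.1% of its reads and were left out. Samples the authors had removed were not analysed here.

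The members and gene lists were chosen with earlier results of these data known. Each preparation was fitted on its own (edgeR 4.0.16, quasi-likelihood test, TMM scaling, filterByExpr, Benjamini-Hochberg over all genes tested, threshold 0.05, R 4.3.3). Levels and responses were compared between preparations in one model of 6 groups. Mouse numbers are shared because each animal gave all 3 preparations. The median correlation of same-mouse deviations was 0.185, 0.166 and 0.0892 for the pairs astrocytes with microglia, astrocytes with homogenate and microglia with homogenate. In that order the lowest same-mouse value was -0.34, -0.22 and -0.16, and the median between different mice was -0.0078, -0.0045 and -0.00030. The best match was the own mouse for 8, 6 and 3 of the 17 mice. CPM are counts per 1000000 at the scaled library size, and levels per kilobase use the union of GENCODE exons. Correlations used log2(CPM + 0.5) and two-sided exact permutation tests that enumerated every pairing (NumPy 2.4.6). Intervals of fold changes are 95%, and p-values of the fits within 1 preparation measure the spread between these mice. The model of 6 groups took the 51 libraries as independent. Its p-values leave out that 3 libraries come from each mouse, which only the fit with the mouse as a block takes in. Alternatives were DESeq2 1.42.0, RLE scaling, no filter, a covariate for mouse-number range, all 51 libraries in one fit, the mouse as a block, control libraries alone, and leaving out each mouse. Added after seeing the data were fits without the 4 mice numbered under 10 and, in microglia, without mice 23, 26, 39 and 41, and correlations centred on the ranges of mouse numbers. Named pathway genes were the 4 with the smallest adjusted p in each CIE comparison, Id2, Smad4, Smad6 and Smad7. Rgma was added after its value was seen because it was the one further call. The fitting scripts were tested on simulated data. Bmpr1b, Smad9 and Id4 had at most 13 reads in any microglial library, and floors of 3 counts cover counting error only.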

Additional observations from a re-analysis of the deposited data

Results flagged for a closer look

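In 5 groups 1 mouse stood apart from the rest, with a gap to the nearest mouse that exceeded the 95% critical value of Dixon's test. With 60 groups of 8 or 9 libraries examined, chance flags about 1 in 20. Bmpr1b in control microglia was 2.28 CPM in mouse 35, and the next mouse had 0.974. Bmpr1b in CIE microglia was 8.39 CPM in mouse 23, and the next had 2.54. Id4 in CIE microglia was 16.8 CPM in the same mouse 23, and the next had 4.92. That library held 571878 counts, the fewest of all, with 5 reads of Bmpr1b and 10 of Id4. Smad1 in control microglia was low in mouse 19, at 49.8 CPM against 59.3 in the next. Id3 in control astrocytes was 109 CPM in mouse 03, and the next had 77.8.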

How the results depend on the processing

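The count of members called was unchanged in every alternative for astrocytes or microglia against homogenate, for homogenate CIE against control (0), and for the 3 differences of responses (0). Between control astrocytes and microglia the count of 9 became 8 with the mouse as a block and without the 4 mice numbered under 10, 7 without a filter, and 7 to 9 on leaving out single mice. In astrocytes the count of 1 became 2 with DESeq2 and with a covariate for mouse-number range, 0 with all 51 libraries in one fit, and 0 to 2 on leaving out single mice. In microglia the count of 1 became 0 without mice 23, 26, 39 and 41, a fit with 5 CIE mice left, and was 0 to 1 on leaving out single mice. With the mouse as a block the counts were 9 and 8 for the other control contrasts, 0 for each difference of responses, and Id1 between astrocytes and microglia was the one call that it ended.

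The number of all genes called moved by more than 1.5 times in several fits. In astrocytes 661 became 1129 with the covariate, 1157 with DESeq2 and 1132 without the 4 mice numbered under 10. In microglia 373 became 775, 767 and 727 under the same alternatives, 954 in one fit and 87 without the 4 mice above. In homogenate 35 became 81, 204 and 7 under the first 3, and 125 in one fit. Leaving out single mice gave 15 to 71 in homogenate, 182 to 684 in microglia and 354 to 1001 in astrocytes. For the differences of responses, 1 became 5, 119 became 248 and 76 became 182 with DESeq2, 1 became 0 with RLE scaling and without the 4 mice under 10, and 76 became 44 without a filter.

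Signs turned only for uncalled values. Without the 4 mice under 10, Bmpr2, Id3 and Smad4 in astrocytes became -0.024, 0.036 and 0.0049, Smad4 in homogenate -0.0010, Bmpr2 for control microglia against homogenate -0.043, Bmpr2 for the response of microglia minus homogenate 0.018, and Id1 for microglia minus astrocytes -0.055. Without mice 23, 26, 39 and 41, microglial Bmpr1a became 0.0058, Bmpr2 0.21, Id1 -0.049, Id3 -0.31, Smad1 0.010 and Smad4 0.11. Smad4 in homogenate was -0.0050 without a filter and -0.0022 in one fit. Bmpr2 for control microglia against homogenate was -0.0200 with RLE scaling and -0.0202 with DESeq2, and for the response of astrocytes minus homogenate Bmpr1a was -0.029 and -0.031 and Id1 was -0.0195 and -0.041 with the same tools. Smad5 for microglia minus astrocytes was -0.0185 without a filter.

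Single mice left out turned further signs. In astrocytes under CIE the log2 values ran, for each gene, Bmpr1a -0.073 to 0.011, Bmpr2 -0.058 to 0.11, Id3 -0.11 to 0.056, Smad1 -0.0066 to 0.11, Smad4 -0.043 to 0.0065 and Smad9 -0.0051 to 0.16. In microglia under CIE the log2 values ran, for each gene, Bmpr2 -0.10 to 0.061, Id3 -0.074 to 0.40 and Smad4 -0.058 to 0.029. In homogenate under CIE the log2 values ran, for each gene, Bmpr1a -0.052 to 0.033, Smad1 -0.0059 to 0.050, Smad4 -0.027 to 0.035 and Smad6 -0.015 to 0.24. For control microglia against homogenate Bmpr2 ran from -0.041 to 0.16. For the response of astrocytes minus homogenate they ran, for each gene, Acvr1 -0.11 to 0.0048, Bmpr1a -0.047 to 0.035, Id1 -0.18 to 0.21 and Id3 -0.044 to 0.22. For that of microglia minus homogenate they ran, for each gene, Bmpr2 -0.12 to 0.063, Id1 -0.084 to 0.40 and Id3 -0.071 to 0.46. For that of microglia minus astrocytes they ran, for each gene, Id1 -0.12 to 0.41, Id3 -0.074 to 0.45 and Smad5 -0.044 to 0.077. Over all named genes and alternatives, 2132 values kept sign and side of the threshold, 39 lost a call, 17 gained one and 103 turned sign, and the causes were not tested.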
